A study of Mus musculus with 25 samples.

Results

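The 10 apolipoprotein genes Apoa1, Apoa2, Apoa4, Apoa5, Apob, Apoc1, Apoc3, Apoe, Apoh and Apom were followed through the sperm RNA of 5 mouse conditions. They were chosen by symbol from a table of 24358 genes, and all 10 were found in it with a valid estimate in every condition. The choice sets Apoe, which many tissues express, against the other 9, which are made mainly in the liver or, for Apoa4, in the small intestine. Sperm that swam from cut cauda epididymides was collected, and 25 libraries, 5 for each condition, were made by a protocol meant to capture RNAs of all types (all-RNA-seq). The condition labelled C57.CTL.F1, here called C57 vehicle, held first generation males of the strain C57BL/6J whose dams received corn oil by mouth, and FVB.CTL.F1 (FVB vehicle) held the same of the strain FVB/N. C57.D300.F1 (C57 DEHP) and FVB.D300.F1 (FVB DEHP) were first generation males whose dams received 300 mg/kg/day of the plasticiser di(2-ethylhexyl) phthalate (DEHP) from embryonic day 9 to 19. C57.D300.F2 (C57 F2) were sons of exposed C57BL/6J males and unexposed females, and their dams received no DEHP. By the study, the exposure of their fathers before birth covered the period in which germ cell precursors migrate. All males were 14 weeks old by the labels. None of the 5 conditions is a vehicle second generation. The 10 libraries of C57 vehicle and C57 DEHP are labelled as re-analysed, and the other 15 were new. No condition has libraries of both sets, so the set of libraries cannot be told apart from generation, or from strain, in any comparison between these sets.

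Each value is the estimated fragment count of a gene in a condition, in which the authors combined the 5 libraries. The counts were scaled between libraries and were not divided by gene length. The SD given with a count is that of the Cuffdiff model and not a spread between libraries. With 1 value per condition there is no replicate check and no p-value. Counts summed to between 6921688 and 8602900 per condition, and a count of 3 was taken as the limit of detection, which covers counting error only.

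Apolipoproteins are the protein part of lipoprotein particles, which carry lipids in blood. Hepatocytes make most of them, the small intestine makes some (Apob, Apoa1 and Apoa4 among them), and Apoe and Apoc1 are also made by macrophages. A particle is built around Apob in very low density lipoproteins (VLDL) and chylomicrons, and around Apoa1 in high density lipoproteins (HDL). Receptors on the cell surface take up particles that carry Apoe or Apob.

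Several members are neighbours in the genome (GRCm38.p6, GENCODE M21). Apoa1 (chr9:46228580-46230466), Apoc3 (chr9:46232933-46235636), Apoa4 (chr9:46240696-46243459) and Apoa5 (chr9:46268633-46271919) form a cluster, in which only Apoc3 is on the minus strand and the gap between Apoa1 and Apoc3 is 2466 bases. Apoc1 (chr7:19689481-19692660) and Apoe (chr7:19696109-19699188) lie 3448 bases apart, both on the minus strand. The others are single: Apoa2 (chr1:171225054-171226379), Apob (chr12:7977648-8016835), Apoh (chr11:108343354-108414396) and Apom (chr17:35128997-35132050). Apoh overlaps Gm11656 on its own strand and Prkca on the other one, so its reads may be shared, and Apoa4 and Apoa5 overlap predicted genes on the other strand.

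The 250 bases before the start site are shown for Apoe and for 2 of the 9 other genes, Apoa2 and Apoa5, because Apoe behaved differently from both across the conditions and because the RefSeq start of these 3 genes is that of their principal GENCODE transcript. RefSeq held promoters for 8 of the 10 genes. The RefSeq start lay 249 bases from the principal one for Apom, 148 for Apoa4, 50 for Apoa1, 29 for Apob and 4 for Apoh. The windows of these genes are therefore not those before the principal start, and that of Apom lies almost wholly inside its gene. Capitals mark matches to 6 motifs searched on both strands, named with their letters after the sequences. The start of AGGTCA can overlap the end of CAAAGG, but no matches overlapped in the member windows.
Apoe, chr7:19699189-19699438, minus strand: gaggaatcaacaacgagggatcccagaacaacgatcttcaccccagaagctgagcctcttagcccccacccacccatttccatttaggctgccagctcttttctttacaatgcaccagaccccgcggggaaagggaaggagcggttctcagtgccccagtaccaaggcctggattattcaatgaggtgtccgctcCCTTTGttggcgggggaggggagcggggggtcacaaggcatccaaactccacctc
Apoa2, chr1:171224804-171225053, plus strand: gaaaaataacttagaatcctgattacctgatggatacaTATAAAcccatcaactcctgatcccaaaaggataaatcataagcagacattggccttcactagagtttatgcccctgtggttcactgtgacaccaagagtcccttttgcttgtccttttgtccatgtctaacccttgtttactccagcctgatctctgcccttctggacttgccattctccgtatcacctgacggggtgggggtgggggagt
Apoa5, chr9:46268383-46268632, plus strand: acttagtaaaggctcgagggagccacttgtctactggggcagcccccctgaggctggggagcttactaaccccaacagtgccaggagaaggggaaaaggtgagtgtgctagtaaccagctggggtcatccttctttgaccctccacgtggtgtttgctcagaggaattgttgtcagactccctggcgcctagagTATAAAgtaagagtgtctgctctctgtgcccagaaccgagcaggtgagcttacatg
TATAAA was present in the windows of Apoa2, Apoa5 and Apob, and in 12.4% of 32851 RefSeq promoters of this length. CAAAGG was present in Apoe (in the printed strand as its reverse complement) and Apob, and in 17.6% of all promoters. AGGTCA was found in Apoh (14.0% of all promoters) and CAAAGT in Apoa4 (12.6%). GTTAAT was in none of the 8 windows, against 6.43% of all promoters. The same held for GGGCGG, against 32.7%. The window of Apoe held 8 CpG dinucleotides, that of Apoa5 4 and that of Apoa2 2, and the median of all promoters was 6. These matches describe the letters of the windows only.

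In C57BL/6J first generation sperm, all 10 genes had at least 69.7 counts. In C57 F2 against either of these conditions, and in FVB/N against C57BL/6J with the same treatment, the counts of the other 9 genes were 11.2 to 312 times lower and those of Apoe 2.91 to 3.95 times lower. The 9 genes other than Apoe summed to 81661 counts in C57 vehicle, or 0.949% of all counts, and to 64479 in C57 DEHP (0.832%). Their sum was 2085 counts in C57 F2 (0.0301%), 568 in FVB vehicle (0.00751%) and 414 in FVB DEHP (0.00500%). Apoe alone held 0.230%, 0.223%, 0.0793%, 0.0661% and 0.0716% of the counts in the same order. The ratio of Apoe to the sum of the others was thus 0.242 and 0.268 in the reused conditions, and 2.63, 8.81 and 14.3 in the new ones. In these bulk samples, fewer cells of a type and less RNA per cell cannot be told apart.

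**Figure D1:**
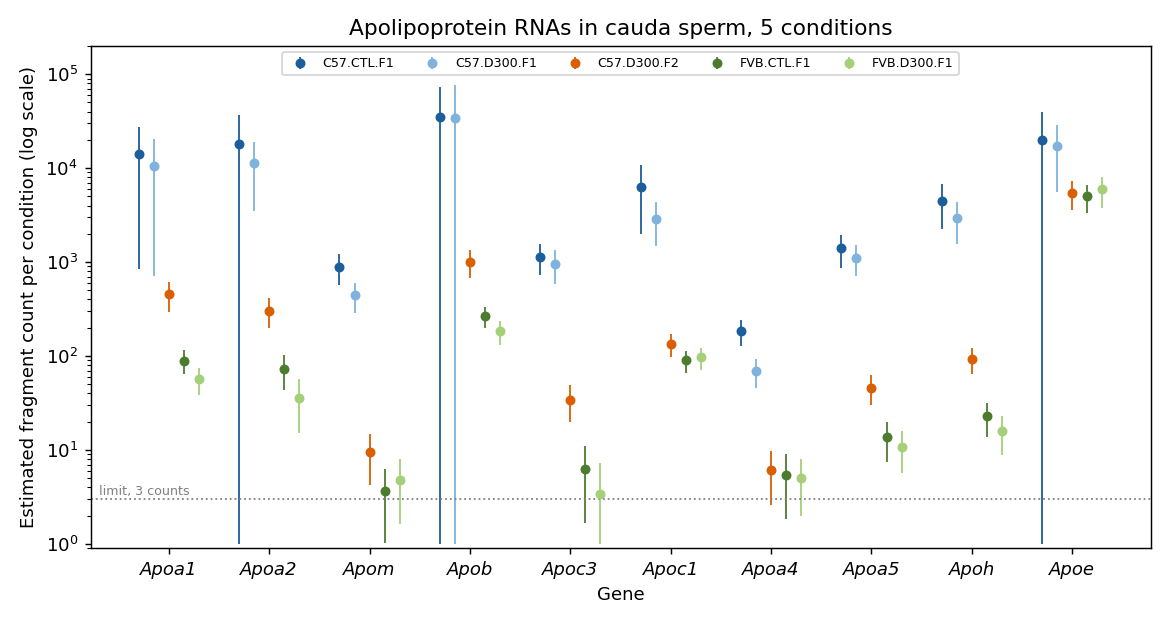
Estimated fragment count (log axis) of the 10 genes in the 5 conditions, with bars of 1 SD of the Cuffdiff model, cut at a count of 1, and a dotted line at 3 counts. Apoe stays between 5005 and 19785 counts, while the other 9 genes lie at 69.7 to 35205 counts in both C57BL/6J F1 conditions and at 3.40 to 1002 in the other 3.

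Among the HDL genes, Apoa1, the main HDL protein, had 14035 counts (model SD 13185) in C57 vehicle and 10601 (SD 9883) in C57 DEHP. It had 453 (SD 158) in C57 F2, 89.4 (SD 25.6) in FVB vehicle and 56.5 (SD 18.4) in FVB DEHP. Both reused conditions were high, and the model SD of Apoa1 in them was nearly as large as the count. Apoa2, the second HDL protein, had 17934 (SD 19310), 11295 (SD 7796), 305 (SD 106), 73.0 (SD 29.1) and 36.2 (SD 20.9) counts in the same order of conditions. Apom, a lipocalin on HDL that carries sphingosine-1-phosphate, had 895 (SD 328), 444 (SD 155), 9.45 (SD 5.20), 3.66 (SD 2.65) and 4.81 (SD 3.16). In both FVB/N conditions Apom was close to the limit of detection.

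Among the genes of the triglyceride-rich particles, Apob, the structural protein of VLDL and chylomicrons, had the most counts of the 10 genes in C57 vehicle, with 35205 (SD 38058), and 34143 (SD 42912) in C57 DEHP. It had 1002 (SD 328), 264 (SD 65.7) and 184 (SD 52.2) in C57 F2, FVB vehicle and FVB DEHP. The order of the 5 conditions was the same as for Apoa1. Apoc3, an inhibitor of lipoprotein lipase, had 1141 (SD 418), 961 (SD 378), 34.4 (SD 14.4), 6.32 (SD 4.64) and 3.40 (SD 3.89) counts. Apoa5, which promotes triglyceride hydrolysis, had 1405 (SD 549), 1119 (SD 409), 46.2 (SD 16.4), 13.8 (SD 6.24) and 10.9 (SD 5.19). Apoc3 and Apoa5 again were lowest in both FVB/N conditions.

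Apoc1, a small exchangeable protein of VLDL and HDL, had 6362 (SD 4368) and 2900.25 (SD 1434) counts in C57 vehicle and C57 DEHP, then 135 (SD 36.4), 89.8 (SD 24.5) and 96.7 (SD 26.1). Its values in the 3 new conditions were closer to each other than those of Apoa1 or Apob. Apoa4, which the small intestine makes most, was the rarest member in C57 vehicle, with 183 (SD 56.3) counts, and had 69.7 (SD 23.4) in C57 DEHP. In the other 3 conditions it had 6.20 (SD 3.61), 5.47 (SD 3.61) and 4.99 (SD 3.0), which is near the limit of detection. Apoh, a plasma protein that binds phospholipids, had 4501 (SD 2229), 2946 (SD 1403), 93.2 (SD 29.4), 22.8 (SD 8.94) and 15.8 (SD 7.0).

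Apoe, a ligand of lipoprotein receptors, had 19785 (SD 19872) counts in C57 vehicle and 17266 (SD 11656) in C57 DEHP. It had 5488 (SD 1902) in C57 F2, 5005 (SD 1685) in FVB vehicle and 5930.2 (SD 2157) in FVB DEHP. By count it ranked 40th, 38th, 129th, 159th and 139th of all genes. The 3 new conditions lay within 1 model SD of each other.

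Compared per kilobase of exon, the order of the genes in C57 vehicle was Apoa2 (33397 counts per kb), Apoa1 (11355), Apoe (9254), Apoc1 (8551), Apoh (2824), Apob (2527), Apoc3 (1125), Apom (884), Apoa5 (557) and Apoa4 (101). Of these neighbours, only Apoa5 and Apoa4 differed by more than the model SD of their difference. In the 3 new conditions Apoe was first, with 2567, 2341 and 2774 counts per kb, and exceeded the next gene by more than that SD. The next gene was Apoa2 in C57 F2 (568) and FVB vehicle (136) and Apoc1 in FVB DEHP (130).

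The first question of the design is whether prenatal DEHP was followed by other RNA levels in the sons. Ratios are given as log2 with 1 added to each count, and a gene was called at 2 log2 units, which is 4-fold, where either condition had at least 10 counts. Folds are ratios of the counts themselves, with nothing added. In C57BL/6J, 0 of all 10 genes were called lower in C57 DEHP, where 0.256% of 16825 genes were, or higher (0.0357%). The median log2 ratio of the 9 was -0.61 and the median of all genes tested was -0.01. Apoa4 (-1.38), Apoc1 (-1.13) and Apom (-1.01) had the lowest ratios, and Apob was at -0.04, which is above 0 with equal totals (0.11) or with the upper quartile (0.02). Apoe was at -0.20. Only the differences of Apoa4 and Apom exceeded the SD of the difference under the model. Alb, the main plasma protein of the liver, had 83529 and 100464 counts, a log2 ratio of 0.27.

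In FVB/N, 0 of the 7 members with at least 10 counts were called lower (0.0182% of 16471 genes were) or higher (0.662%). The median of the 9 log2 ratios was -0.50. Apoa2 was at -0.99 and Apoa1 at -0.65, and these were the only members whose difference exceeded its model SD. Apoc1 was at 0.11, which turns to -0.02 with equal totals, and Apoe at 0.24. The difference between the strains in the DEHP ratio (FVB/N minus C57BL/6J) was largest for Apom (1.33), Apoa4 (1.27) and Apoc1 (1.24) and had a median of 0.02 over the 9. It was not tested, and Apom and Apoa4 are near the limit of detection in FVB/N. Beside these values, the 9 epididymis markers summed to 169 counts in FVB vehicle and 39592 in FVB DEHP. All 9 were called higher, where 0.662% of all genes were. Among them, the lipocalins Lcn5, Lcn8 and Lcn9, with Gpx5, Spag11b and Defb30, are RNAs that the study chose from these same samples. The study placed them in its pattern of DEHP-resistance, which is higher in FVB DEHP than in FVB vehicle. Their direction is therefore not independent evidence. The part of epididymal cells in the ratios was not tested.

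The next comparison sets the second generation against C57BL/6J first generation sperm. All 9 genes were called lower in C57 F2 than in C57 vehicle, where 3.61% of 17114 genes were. Their log2 ratios had a median of -5.13 and ranged from -6.42 (Apom, 94.7-fold lower) to -4.68 (Apoa4, 29.6-fold lower). Apoa1 was 31.0-fold lower, Apoa2 58.7-fold, Apob 35.1-fold, Apoc1 47.1-fold, Apoc3 33.1-fold, Apoa5 30.4-fold and Apoh 48.3-fold. Apoe was 3.61-fold lower (log2 -1.85) and was not called. The difference exceeded the model SD for 7 of the 9 genes, and not for Apoa2, Apob or Apoe. Against C57 DEHP, the first generation of the same lineage, all 9 were also called lower (3.30% of 17133 genes were), with a median of -4.76, from -5.41 (Apom) to -3.30 (Apoa4), and Apoe was at -1.65. Both comparisons use the same C57 F2 values. Apoa1, Apoa2, Apoc3, Apoh and Apom belong to the RNAs that the study chose from these same samples as differing most among the 5 conditions. The study placed them in its pattern of generational impacts. Their direction is therefore not independent evidence, here or in the comparisons between strains that follow.

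The strains were then compared. All 9 genes were called lower in FVB vehicle than in C57 vehicle, where 8.88% of 17086 genes were, with a median log2 ratio of -7.28. Apoa2 was 246-fold lower, Apom 245-fold, Apoh 198-fold, Apoc3 180.4-fold (log2 -7.28, or -6.14 with a pseudocount of 10), Apoa1 157-fold, Apob 133-fold, Apoa5 102-fold, Apoc1 70.9-fold and Apoa4 33.5-fold. Apoe was 3.95-fold lower, at a log2 ratio of -1.98 that was just inside the threshold. The difference exceeded the model SD for 7 of the 9 genes, and not for Apoa2, Apob or Apoe. Between the exposed conditions FVB DEHP and C57 DEHP, all 9 were called lower (7.67% of 17377 genes were), with a median of -7.46, and Apoe was at -1.54. There the difference exceeded the model SD for 8 of the 9, and not for Apob or Apoe. As above, strain and library set cannot be told apart here.

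**Figure D2:**
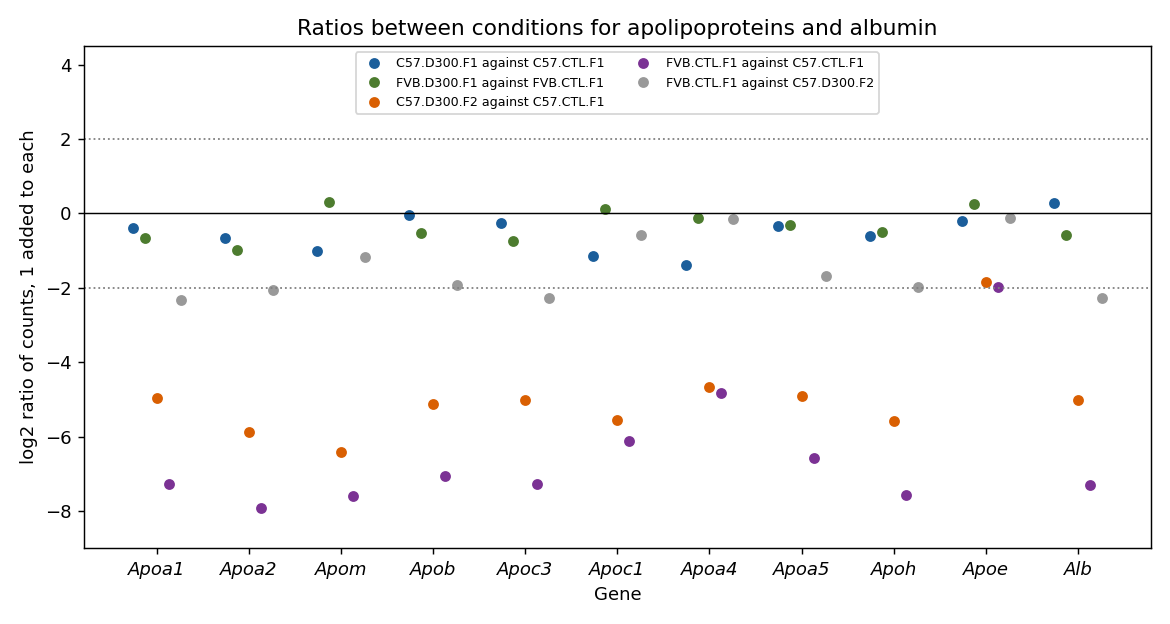
Log2 ratio of counts (1 added to each) of the 10 genes and Alb in 5 comparisons, with dotted lines at 2 and -2. The 9 genes lie between -4.68 and -7.92 for C57 F2 and FVB vehicle against C57 vehicle, where Apoe is at -1.85 and -1.98, and all genes shown lie between -1.38 and 0.32 for DEHP against vehicle within a strain.

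Within the new libraries, the set is shared by both conditions, but strain and generation differ together, and FVB vehicle also differs in lineage. In FVB vehicle against C57 F2, 3 of the 7 genes tested were called lower (Apoa1 at -2.33, Apoc3 at -2.27 and Apoa2 at -2.05), where 2.50% of 16969 genes were. With a pseudocount of 10 only Apoa1 stayed past the threshold, as Apoa2 was then at -1.93 and Apoc3 at -1.44, and with equal totals 5 genes were called. Apoh at -1.99 and Apob at -1.92 were just inside the threshold, and Apoc1 was at -0.58. Apoe differed little, at -0.13. In FVB DEHP against C57 F2, 5 of 7 were called lower (2.02% of 17122 genes were), from Apoa2 at -3.04 to Apob at -2.44, and Apoe was at 0.11, which turns to -0.15 with equal totals. Apoa4 and Apom had under 10 counts in all 3 new conditions and were not tested.

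Ratios within a condition do not depend on scaling between conditions. Relative to Alb, Apoa1 was at 0.168, 0.106, 0.177, 0.171 and 0.162 in the order C57 vehicle, C57 DEHP, C57 F2, FVB vehicle and FVB DEHP. The highest of these ratios was 1.68 times the lowest, although the count of Alb itself ran from 100464 down to 349. The model SD of Alb was 343315 in C57 vehicle and 443754 in C57 DEHP, more than 4 times its count, and 1232, 135 and 102 in the other 3 conditions, so the ratios to Alb in the reused conditions are very uncertain. The same span was 1.43 for Apoc3, 1.56 for Apob, 1.84 for Apoh, 2.07 for Apoa2, 2.80 for Apoa5 and 3.73 for Apom. In FVB vehicle and FVB DEHP, Apoc3 had 6.32 and 3.40 counts and Apom 3.66 and 4.81. Their spans thus rest on values near the limit of detection. With Apoa1 in place of Alb, the span was 1.47 for Apob, 1.51 for Apoc3, 1.56 for Apoh and 74.4 for Apoe.

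Apoc1 and Apoa4 varied more against Alb. Apoc1 was at 0.0762, 0.0289, 0.0528, 0.171 and 0.277 of Alb, a span of 9.60, with both FVB/N conditions high. Apoa4 had a span of 20.6, which rests on about 5 counts in the FVB/N conditions. Apoe was at 0.237, 0.172, 2.14, 9.55 and 17.0 times Alb, a span of 99.0. Apoe and its neighbour Apoc1 thus had unlike profiles, and the ratio of Apoc1 to Apoe went from 0.322 in C57 vehicle to 0.0163 in FVB DEHP.

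**Figure D3:**
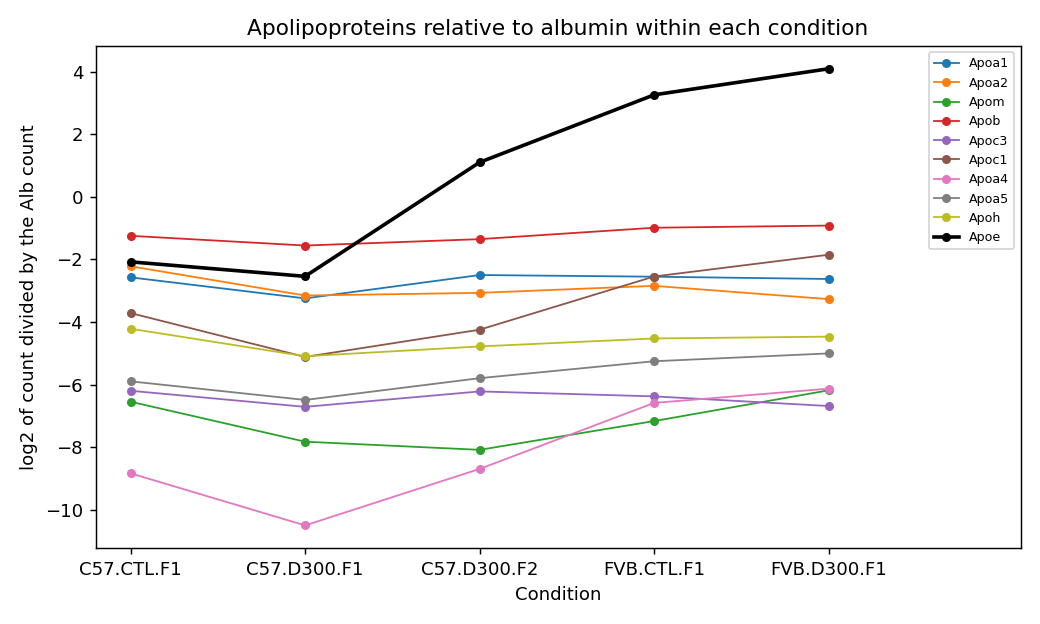
Log2 of the count of each gene divided by the count of Alb in the same condition, for the 5 conditions, with lines joining values of 1 gene. The lines of Apoa1, Apob and Apoc3 are nearly level, Apoc1 is highest in both FVB/N conditions, and Apoe goes from -2.54 in C57 DEHP to 4.09 in FVB DEHP. The FVB/N values of Apoc3, Apoa4 and Apom rest on counts near the limit of detection.

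The genes whose pattern over the 5 conditions was most like each type were sought among 11228 genes, by the root mean square distance of centred log2 counts. For the median of the 9 these were Uox (0.0638), the urate oxidase of the liver, Hc (0.0981), which encodes complement C5, Itih1 (0.108), Baat (0.112), which conjugates bile acids, and Slco1a1 (0.131). Uox is also in the study's pattern of generational impacts, chosen from these same samples. For Apoe they were Ebp (0.110), a sterol isomerase, Bche (0.113), Acad11 (0.118), Pnpla7 (0.119) and Creg1 (0.120). The distance of the 9 from Apoe was 1.23 for Apoa4, 1.79 for Apoc1 and 2.17 to 2.87 for the other 7. That of Apoa4 rests on 6.20, 5.47 and 4.99 counts in the 3 new conditions, near the limit of detection. All of these distances are over 5 values.

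Other genes of the pathway differed by list. Of 20 further apolipoproteins, 12 could be tested in C57 F2 against C57 vehicle and 7 were called lower, with a median of -3.44, where 3.61% of all genes tested were and the median of all was -0.04. These were Apoc4 (-5.76), Apon (-4.46), Apoc2 (-4.40), Apol7a (-4.34), Apof (-4.10), Apol9b (-3.87) and Apol9a (-3.0). Apol9a and Apol9b are near-identical copies whose reads could be split between them. Clu, a broadly expressed apolipoprotein that is abundant in the male tract, was not called, with 12898 counts in C57 vehicle, 32443 in C57 F2 and 41657 in FVB vehicle. Apod, another broadly expressed one, had 1221, 2283 and 2091 counts in these conditions.

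Of 10 receptors, 1 was called lower, Stab2 (-3.30), a scavenger receptor of liver sinusoids, against the same 3.61% of all genes, and the median of the list was -0.11. The receptors with most counts in C57 vehicle were Lrp2 (10385 counts, 14973 in C57 F2), Lrp1 (9273 and 10646) and Cd36 (1062 and 634). Of the 20 genes of assembly, remodelling and HDL cargo in the table, 11 were called lower, again against 3.61%, with a list median of -2.97. Among them were Saa2 (-7.83), Ttr (-6.62), Saa1 (-6.55), Pon1 (-5.75), Hpx (-5.51), Saa4 (-4.91), Lipc (-4.68), Lcat (-4.01), Gpihbp1 (-3.28) and Pon3 (-2.66). Pon1, Hpx and Saa2 are also among the RNAs that the study chose from these same samples, so their direction is not independent evidence. Lpl, the lipoprotein lipase of muscle and fat, had 952 and 1003 counts, and Mttp, which loads lipid onto Apob, had 956 and 313.

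**Figure D4:**
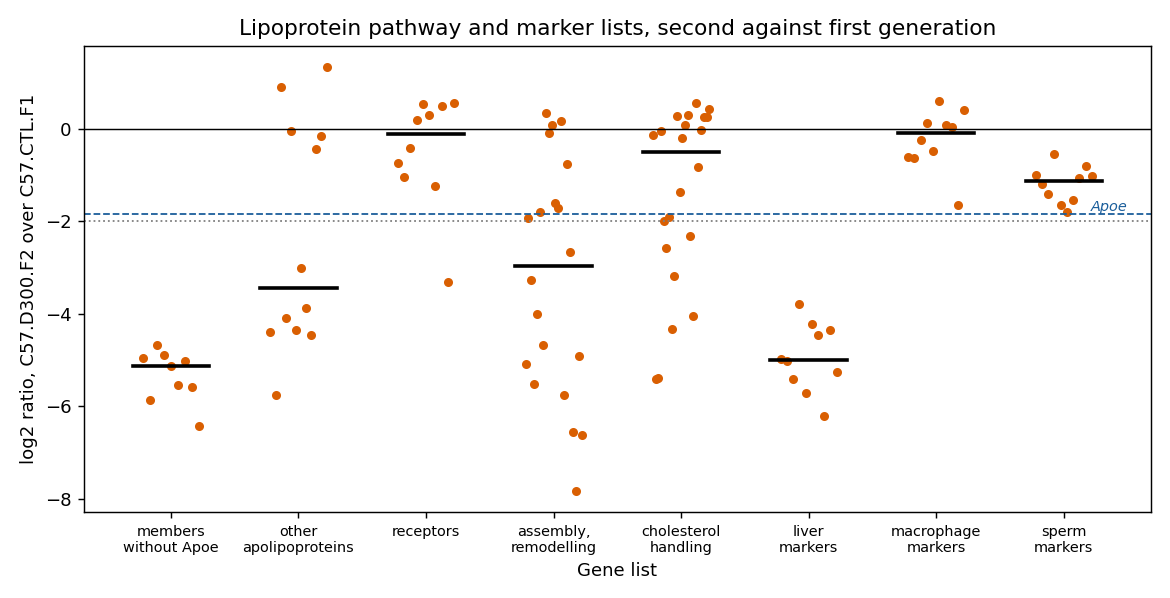
Log2 ratio of C57 F2 over C57 vehicle for the tested genes of 8 lists, with a point per gene, a bar at the median of the list, and lines at Apoe (-1.85, dashed) and at -2 (dotted). The 9 genes and the 10 liver markers all lie under -3, while receptors and macrophage markers have medians near 0.

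Of these lists, the DEHP comparison in C57BL/6J called only Saa1 (1092 counts in C57 vehicle, 27.9 in C57 DEHP) and Saa2 (1304 and 13.0), acute phase proteins of HDL. They are near-identical copies too. The study chose Saa2 from these same samples, in its pattern of DEHP-susceptibility, which is lower in C57 DEHP than in C57 vehicle. The direction of Saa2 is therefore not independent evidence. In FVB/N the DEHP comparison called 0 genes of the 3 lists. Of all genes tested, 0.256% were called lower and 0.0357% higher in C57BL/6J. In FVB/N these shares were 0.0182% and 0.662%, so a count of 0 in lists of this size is near the background.

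The marker lists of other cell types differed in how far they moved with the 9 genes. Against C57 vehicle, 3.61% of all genes tested were called lower in C57 F2 and 8.88% in FVB vehicle. These shares apply to each list below. The 10 liver markers, all above 10 counts in every condition, summed to 144692, 154547, 4557, 1244 and 930 counts in the order of conditions used above. All 10 were called lower in C57 F2 and FVB vehicle against C57 vehicle. Alb, Ahsg, Fgb, Serpina1b and Cps1 of this list are in the study's pattern of generational impacts, chosen from these same samples. Their direction is therefore not independent evidence. The 10 sperm markers, among them Smcp, Odf1 and Prm2, summed to 86441, 72767, 29333, 7121 and 8452, and 0 were called in C57 F2 (all 10 below 0, median -1.12) and 10 in FVB vehicle (median -3.27). The 10 macrophage markers, all detected in every condition, summed to 8648, 9785, 5978, 3150 and 3128. Of these, 0 were called in C57 F2 (median -0.10), and Adgre1 and Lyz2 were called lower in FVB vehicle (median of the list -1.07). The intestinal markers Sis and Cdx2 had 3 counts or fewer in all conditions, as had the kidney markers Umod and Slc34a1. The part of liver cells, macrophages or sperm number in the levels of the 10 genes was not tested.

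The model SD of several members was larger than that of genes with similar counts. In C57 vehicle the SD relative to the count was 1.95 times that of the 200 genes of nearest count for Apoa1, 2.17 times for Apoa2, 2.04 times for Apob and 2.03 times for Apoe. It was 1.46 times for Apoa5, which had fewer counts. For Apoe in C57 F2, FVB vehicle and FVB DEHP it was 1.00, 0.982 and 1.00 times. How this SD depends on the 5 libraries is not given.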

How the data were processed

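Sperm RNA of 25 libraries in 5 conditions was measured by all-RNA-seq. The authors clipped the RA3 adapter, dropped reads under 18 bases, mapped to mm10 with TopHat in strand-specific mode and ran Cuffdiff. The submitters' processing notes also name CASAVA 1.8.2. The deposited values are a signal, 1 estimated fragment count per gene and condition, scaled between libraries by Cuffdiff, with the model variance, whose square root is the model SD. The annotation release is not given in the sources used here. Of all genes, 71 had no valid estimate in at least 1 condition and were treated as missing.

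Log2 ratios, calls at 2 log2 units with at least 10 counts, list medians, counts per kb of merged GENCODE M21 exons and distances over 5 conditions were computed with Python 3.11.15, numpy 2.4.6, pandas 2.3.3 and matplotlib 3.10.9. The 8 contrasts pair the conditions. No test was run, since values of single libraries were not analysed here. Named genes are the 10 members, Alb, the genes called in the pathway lists, the 3 pathway genes with most counts, and the 5 genes most like Apoe or the median of the 9. Apod, Lpl, Mttp, Abcg5, Nr1h2 and the members of marker lists that are named were chosen after their values were seen. The members and lists were chosen with earlier results of these data known. Some genes of the pathway lists are not reported here by name. Alternatives were scaling, pseudocounts, minimum counts and thresholds. Tested on simulated data of 16459 genes with 200 changed by 3 log2 units, past the threshold of 2, the procedure recovered 199. The simulated spread was far smaller than the model SD of Apoa1, Apoa2, Apob, Apoe or Alb in C57 vehicle. The recovery therefore says nothing about calls on such uncertain values.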

Additional observations from a re-analysis of the deposited data

How the results depend on the processing

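No paired analysis was possible because the table holds 1 value per condition. The fits with a replicate block and the leave-one-out alternatives were therefore not run. Of 214 summary values under alternatives, 205 were within the limit of 0.5 log2 units or 1.5 times, and 9 moved further. None was labelled reversed, but many of these values are counts of genes, which cannot change sign. Ratios of single genes that changed sign while moving by less than 0.5 were not labelled reversed either. No conclusion on stability is therefore drawn from the absence of this label. With a threshold of 1 log2 unit, 3 of the 9 genes were lower in C57 DEHP than in C57 vehicle (0 at 2 units), where 1.15% of all genes were. With a pseudocount of 10 the median of the 9 was -6.14 for FVB vehicle against C57 vehicle, -6.18 for FVB DEHP against C57 DEHP and -1.73 for FVB DEHP against C57 F2. The number of genes lower in FVB vehicle than in C57 F2 was 3, and became 5 with equal totals (3.19% of all genes), 5 with the upper quartile (3.13%), 1 with a pseudocount of 10 (0.955%) and 6 at 1 log2 unit (11.6%). For FVB DEHP against C57 F2 it was 5, and 3 with a minimum of 100 counts (1.58% of all genes). Of 480 ratios of single genes under alternatives, 463 moved by less than 0.5 and 4 changed sign, given in the report. Equal totals shifted the median of all genes to 0.28 for C57 F2 against C57 vehicle, where calls went from 617 lower and 100 higher to 539 and 175, and the upper quartile shifted it to 0.24. For FVB DEHP against C57 F2 equal totals took calls from 346 lower and 271 higher to 532 and 210. Depth limits Apoa4, Apoc3 and Apom in FVB/N, at 3.40 to 6.32 counts.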

Other observations

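Genes of cholesterol handling were examined beside the apolipoproteins. Of 22 genes, 7 were called lower in C57 F2 than in C57 vehicle, where 3.61% of all genes were, among them the bile salt and phospholipid transporters Abcb11 (-5.41) and Abcb4 (-5.39), Cyp7a1 (-4.33), the rate-limiting enzyme of bile acid synthesis, the bile acid receptor Nr1h4 (-4.04), the sterol transporter Abcg8 (-2.58) and Nr1h3 (-2.32). Abcg5, the partner of Abcg8 (97.0 and 23.5 counts), missed the threshold. Nr1h2, the broadly expressed relative of Nr1h3, had 256 counts in C57 vehicle and 314 in C57 F2. Abca1, which passes cholesterol to Apoa1, had 2521 and 2289 counts, and Hmgcs1, an enzyme of cholesterol synthesis, had 3676 and 1433. In FVB vehicle against C57 vehicle, 9 of the 22 were called lower, against 8.88% of all genes.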
